A study of Homo sapiens with 4 samples.

Results

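Agrin, the membrane proteins that bind it and the complex built on dystroglycan were followed through 9 genes, AGRN, LRP4, DAG1, UTRN, SGCB, SGCE, SNTB1, SNTB2 and SSPN, each taken by matching its Ensembl identifier to its symbol. Of these, 8 were listed among 12189 genes of the SiHa table and 7 among 12036 of the MS751 table, and 6 were among the 11112 genes in both. SiHa and MS751 are established lines of squamous cell carcinoma of the cervix. In each line 1 library came from cells transfected with siControl, a control small interfering RNA (genotype label WT), and 1 from cells transfected with siDDX24-1 (label DDX24 knockdown), an siRNA against the transcript of the RNA helicase DDX24. All cells went through lipid transfection, with 5 uL of 20 uM siRNA in 2 mL of medium, and were sampled on day 2. Each of the 4 groups thus holds 1 RNA-seq library, so no difference within a line has a replicate check, and the 95% intervals given with levels and folds cover counting error only. The labels name no molecular identifiers, and PCR copies of a read are not separate molecules, so the intervals may be too narrow.

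Agrin is a large heparan sulphate proteoglycan of basement membranes. At the neuromuscular junction it binds LRP4, a membrane receptor, which then activates the kinase MuSK, and its laminin G-like domains also bind the sugar chains of dystroglycan. Dystroglycan, the product of DAG1, is cut into an outer alpha subunit that holds laminins, perlecan and agrin and a beta subunit that crosses the membrane and binds dystrophin or, outside muscle, its relative utrophin. Sarcoglycans and sarcospan stabilise this assembly in the membrane, and syntrophins attach signalling proteins to it. The title of the series places AGRN downstream of DDX24, and the study may have picked AGRN from these same libraries, so its values here are not independent evidence of that order.

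The last 60 coding bases of 3 links of this chain are shown because these genes differ in base composition, by which the folds are ranked further on. They are taken from the longest coding transcript of each gene in GENCODE release 29 (GRCh38), with the stop codon in capitals.
AGRN: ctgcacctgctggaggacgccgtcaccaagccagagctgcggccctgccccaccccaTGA
DAG1: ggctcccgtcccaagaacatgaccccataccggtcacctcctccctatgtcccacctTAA
UTRN: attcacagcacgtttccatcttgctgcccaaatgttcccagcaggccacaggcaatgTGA
The GC content of these windows was 70.0% for AGRN, 58.3% for DAG1 and 51.7% for UTRN, and that of the whole transcripts was 67.5%, 55.1% and 42.8%. The transcripts of LRP4 (55.3%), SNTB1 (43.6%), SNTB2 (41.7%), SGCE (39.7%), SGCB (39.5%) and SSPN (38.4%) complete the set. By the longest transcript AGRN thus stood alone at the GC-rich end, and all 6 genes of the complex other than DAG1 lay at the GC-poor end. Averaged over coding transcripts, the split was less clean. LRP4 was then at 62.4%, SNTB1 at 54.5%, SNTB2 at 51.7% and SSPN at 48.7%, beside AGRN at 68.4%.

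The 4 libraries held between 13160487 and 20117442 counts. The tables list only genes above 1 CPM (counts per 1e6 counts) in both libraries of a line, so a gene that is unlisted is not shown to be silent. DDX24 was 6.55-fold lower in SiHa siDDX24-1 and 2.30-fold lower in MS751 siDDX24-1 than in the matching control. The labelled squamous type had little backing in the number of its markers listed. Of 6 markers of squamous epithelium SiHa listed only KRT17, though at 999 CPM in siControl and 875 in siDDX24-1, and MS751 listed none. SiHa listed all 4 markers of simple epithelium, with a summed level of 2288 CPM in siControl and 2025 in siDDX24-1. MS751 listed 3 of them, at a far lower 128 and 160 CPM. Of 5 skeletal muscle markers, SiHa listed none and MS751 listed MUSK alone, at 33 and 26 counts (siControl first, as throughout). Of 5 fibroblast markers SiHa listed 2, with a summed level of 18.2 CPM in siControl and 8.63 in siDDX24-1. MS751 listed 3 of them (COL1A1, COL1A2 and LUM), at 89.7 and 28.2 CPM, so this sum was lower with siDDX24-1 in both lines. Not every marker in the sum fell, since COL1A2 had 32 and 48 counts in MS751. Its log2 fold there, siDDX24-1 over siControl, was 0.43, with a counting interval of -0.23 to 1.135. The part of the fibroblast sum in the results was not tested. Markers of other cell types did not all fall. PECAM1, the only endothelial marker listed, was at 12.4 and 13.7 CPM in SiHa. CD68, the only leukocyte marker listed, was at 7.46 and 7.26 CPM in SiHa and 3.78 and 6.10 in MS751. In bulk RNA of cultured carcinoma lines, such levels do not show that fibroblasts, endothelium or leukocytes were present.

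AGRN, the ligand, was lower with siDDX24-1 in both lines, but with the trend of folds with GC content removed its log2 fold was -0.35 in SiHa and 0.05 in MS751. The gene (ENSG00000188157, chr1:1020123-1056118, plus strand) had 10838 counts in SiHa siControl and 7167 in SiHa siDDX24-1, or 599 and 364 CPM. In MS751 it had 5203 and 3648 counts, or 394 and 249.9 CPM. In each line the siDDX24-1 library thus lay below its siControl library. These CPM values are scaled within a line, so the order of SiHa siDDX24-1 and MS751 siControl, which lie close, is not established. The log2 fold, siDDX24-1 over siControl, was -0.72 in SiHa (95% interval -0.76 to -0.68) and -0.66 in MS751 (-0.72 to -0.59), which is 1.65-fold and 1.57-fold lower. A single exonic stretch of 402 bases is shared with a non-coding gene that neither table lists. The nearest coding gene, the interferon-stimulated ISG15, lies 5583 bases away on the same strand and had log2 folds of -1.09 and -0.60. RNF223, 14848 bases away on the other side and strand, had 95 and 56 counts in SiHa, a log2 fold of -0.87. It was unlisted in MS751.

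The 2 lines act as the replicates in a test of the change that they share. With edgeR's quasi-likelihood test, the cell line as a block and 1 residual degree of freedom per gene, the AGRN log2 fold was -0.71 (SE 0.21), with an adjusted p of 0.309 over 11112 genes and an unadjusted p of 0.00998. The test draws the variance of each gene toward a trend over all genes. Its SE and p-value thus rest partly on other genes and do not measure the spread of AGRN alone between the lines. Of the 6 genes of the set that could be tested, 0 passed the adjusted threshold of 0.05 with edgeR, DESeq2 or limma, and AGRN was the only one under an unadjusted p of 0.05 with edgeR (1 gene by DESeq2 and 2 by limma). Over all genes the edgeR test called 5, or 0.045%, and 12.6% had an unadjusted p under 0.05. DDX24, the target of the siRNA, had a log2 fold of -1.97 (SE 0.36) and an adjusted p of 0.171 by edgeR. It missed the threshold too, so a gene not called by this test is not shown to be unchanged.

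**Figure D1:**
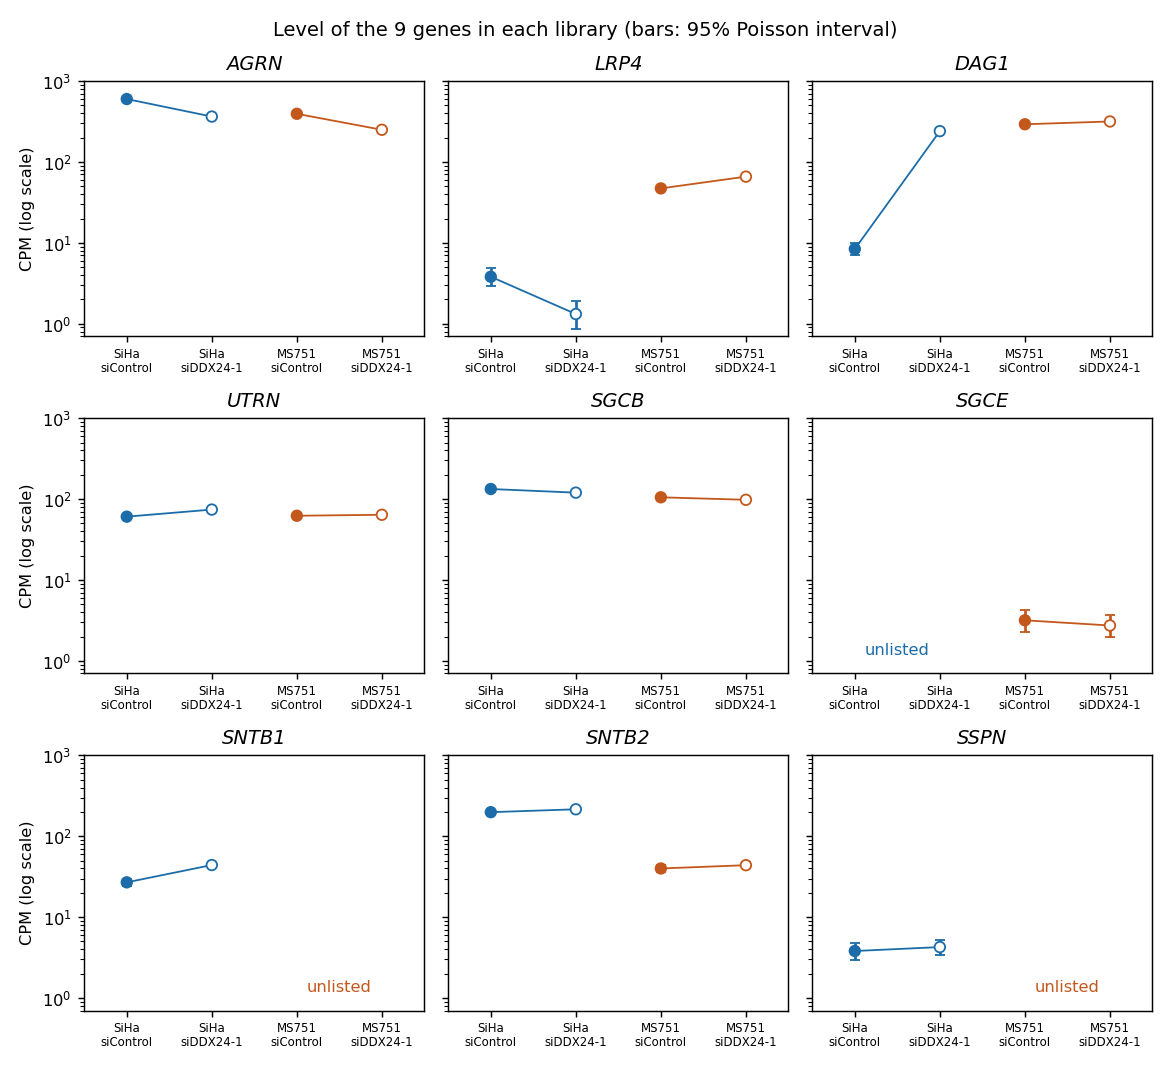
Level of each of the 9 genes in the 4 libraries, in CPM on a log axis, with filled points for siControl, open points for siDDX24-1 and bars for the 95% Poisson interval of the count. DAG1 in SiHa siControl, at 8.40 CPM, stands far below its other 3 libraries, which lie between 240.4 and 316 CPM, while UTRN and SGCB sit at similar heights in all 4.

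DAG1, which encodes the dystroglycan precursor, had the highest fold of all 12189 genes compared in SiHa. The gene (ENSG00000173402, chr3:49468703-49535618, plus strand) had 152 counts in SiHa siControl and 4734 in SiHa siDDX24-1, or 8.40 and 240.4 CPM. In MS751 the counts were 3863 and 4619, or 292 and 316 CPM. The SiHa siControl library was thus the low one, and SiHa siDDX24-1 came near the level of both MS751 libraries. Whether the 152 counts reflect the transcript level or the authors' counting was not tested, and no second SiHa siControl library was at hand, so the fold rests on this single value. The log2 fold was 4.83 in SiHa (95% interval 4.61 to 5.08), a 28.4-fold difference, and 0.11 in MS751 (0.05 to 0.18), a 1.08-fold difference. These intervals do not overlap, but a test of the difference between lines has no residual degrees of freedom and was not made. In the test common to both lines DAG1 had a log2 fold of 2.38 (SE 1.10) and an adjusted p of 0.402 by edgeR.

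No exon of DAG1 overlaps that of another gene in GENCODE release 29, and its neighbours did not show the same gap in SiHa. NICN1, 39377 bases away at lower coordinates, had 49 and 42 counts in SiHa. BSN, which encodes a presynaptic scaffold protein and lies 18871 bases away at higher coordinates, had 45 in each SiHa library and 41 and 28 in MS751. A promoter window of DAG1 is shown because this gene carries the largest difference of the set. No factor's binding was measured. The window spans 250 bases before to 50 after an annotated start (RefSeq, GRCh38.p14, chr3:49469882-49470181, plus strand), and capitals mark GGGCGG or CCAAT on either strand.
DAG1 promoter: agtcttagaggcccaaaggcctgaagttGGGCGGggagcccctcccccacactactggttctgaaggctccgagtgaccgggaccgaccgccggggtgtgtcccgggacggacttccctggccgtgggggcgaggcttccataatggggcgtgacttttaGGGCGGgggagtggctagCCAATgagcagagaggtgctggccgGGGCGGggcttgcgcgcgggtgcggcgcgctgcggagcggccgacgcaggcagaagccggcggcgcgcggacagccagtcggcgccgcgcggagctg
It holds 3 copies of GGGCGG and 1 of CCAAT, with no overlap between the motifs. Among 35116 promoter windows of the same length, 45.0% held GGGCGG and 34.6% held CCAAT at least once. Its GC content of 71.7% exceeded that of 83.4% of these windows. Another annotated DAG1 window, chr3:49470017-49470316, overlaps the one shown. That window holds 4 copies of GGGCGG and 2 of CCAAT, with a GC content of 74.7%.

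LRP4, the agrin receptor that works with MuSK, differed in direction between the lines. The gene (ENSG00000134569, chr11:46856868-46918642, minus strand) had 69 and 26 counts in SiHa, or 3.82 and 1.32 CPM. In MS751 it had 623 and 961 counts, or 47.1 and 65.8 CPM. All MS751 values were thus more than 10 times those of SiHa, where the siDDX24-1 level lay close to the 1 CPM that a gene needs to be listed. The log2 fold was -1.49 in SiHa (95% interval -2.24 to -0.86) and 0.48 in MS751 (0.34 to 0.63). Shared exonic sequence of 515 bases with LRP4-AS1 on the other strand makes these counts uncertain, since how the authors' counting treated strand was not stated.

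UTRN, which encodes utrophin, the link from beta-dystroglycan to actin, had nearly the same level in every library. Its gene (ENSG00000152818, chr6:144285701-144853034, plus strand) had 1097 and 1461 counts in SiHa and 823 and 934 in MS751. These are 60.7 and 74.2 CPM in SiHa and 62.3 and 64.0 CPM in MS751, so SiHa siDDX24-1 alone stood above the others. The log2 fold was 0.29 in SiHa (95% interval 0.18 to 0.41) and 0.04 in MS751 (-0.10 to 0.18). DMD, the gene of dystrophin, was listed in neither line.

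The sarcoglycans are single-pass membrane proteins of the complex. SGCB (beta-sarcoglycan, ENSG00000163069, chr4:52020706-52038482, minus strand) had 2410 and 2366 counts in SiHa and 1391 and 1431 in MS751. Its log2 folds were -0.15 (95% interval -0.23 to -0.07) and -0.10 (-0.21 to 0.01). SGCE (epsilon-sarcoglycan, ENSG00000127990, chr7:94524204-94656572, minus strand) was listed in MS751 alone, with 42 and 40 counts and a log2 fold of -0.21 (-0.88 to 0.45). Both thus had small differences, of which that of SGCB in SiHa alone exceeded its counting interval. SGCE shares 219 exonic bases with the imprinted gene PEG10 on the other strand, which had 87 and 382 counts in the same libraries, so the few SGCE counts are less certain. SSPN, which encodes the tetraspan protein sarcospan (ENSG00000123096, chr12:26121991-26299290, plus strand), was listed in SiHa alone with 69 and 84 counts and a log2 fold of 0.16 (-0.32 to 0.64). It shares 162 exonic bases with BHLHE41 on the other strand, a transcription factor gene with 341 and 294 counts there, and 751 with an unlisted antisense gene.

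The syntrophins are adaptors that bind dystrophin and utrophin. SNTB1 (beta-1 syntrophin, ENSG00000172164, chr8:120535745-120813273, minus strand) was listed in SiHa alone, with 487 and 867 counts, or 26.9 and 44.0 CPM. Its log2 fold of 0.71 (95% interval 0.55 to 0.87) lay at percentile 96.8 of all SiHa folds. It shares 297 exonic bases with MTBP on the other strand, which had 203 and 277 counts, and 437 with an unlisted antisense gene. SNTB2 (beta-2 syntrophin, ENSG00000168807, chr16:69187129-69309052, plus strand) had 3585 and 4238 counts in SiHa and 528 and 640 in MS751. Its log2 folds, 0.12 (0.05 to 0.18) and 0.13 (-0.03 to 0.30), were alike in size, whereas its level was higher in SiHa. Exonic sequence of 93 bases is shared between SNTB2 and an unlisted coding gene on the same strand.

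**Figure D2:**
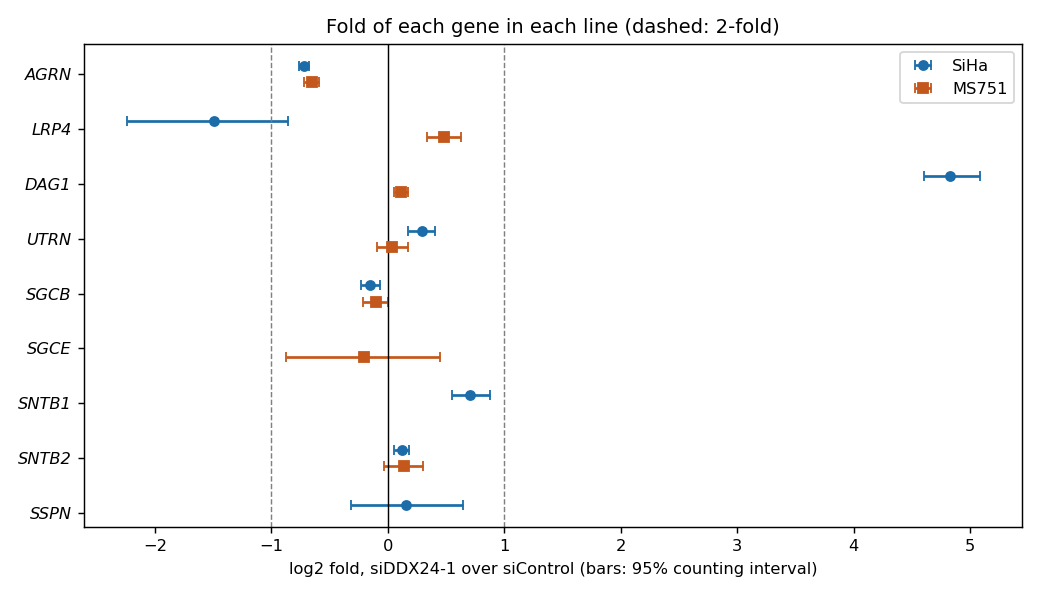
Log2 fold of siDDX24-1 over siControl for each gene, with circles for SiHa, squares for MS751, bars for the 95% counting interval and dashed lines at 2-fold. DAG1 (4.83) and LRP4 (-1.49) in SiHa are the points beyond 2-fold, and AGRN lies at -0.72 and -0.66 in the 2 lines.

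Of the 8 genes listed in SiHa, 1 was at least 2-fold higher (DAG1) and 1 at least 2-fold lower (LRP4), where 1.46% and 3.05% of all SiHa genes were past 2-fold higher and lower (4.51% in either direction). Of the 7 listed in MS751, 0 were past 2-fold in either direction, against 12.3% of all MS751 genes (3.74% higher and 8.55% lower). The median fold of the set was 0.139 in SiHa and 0.039 in MS751 on the log2 scale, beside medians over all genes of -0.004 and 0.001. In the test common to both lines LRP4, UTRN, SGCB and SNTB2 had adjusted p values of 0.755, 0.782, 0.767 and 0.831 by edgeR.

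The order of the transcripts changed with the DAG1 difference. Levels between genes were compared in CPM per kilobase of the longest coding transcript. In SiHa siControl AGRN led at 81.0, followed by SGCB at 30.1, SNTB2 at 20.2, SNTB1 at 5.21, UTRN at 4.92, DAG1 at 1.44, SSPN at 0.877 and LRP4 at 0.472. In SiHa siDDX24-1 DAG1 stood second at 41.2, behind AGRN at 49.2. AGRN (53.2) and DAG1 (50.1) were likewise the top pair in MS751 siControl, and in MS751 siDDX24-1 DAG1 led at 54.3 with AGRN at 33.8. The Poisson intervals of neighbours in these orders were apart except for SNTB1 and UTRN in SiHa siControl and LRP4 and UTRN in MS751 siControl. With the length of all exons together as the divisor, DAG1 came before AGRN in SiHa siDDX24-1 and MS751 siControl too, so the order of this pair depends on the length used. The order of SNTB1 and UTRN in SiHa siControl and of UTRN and SNTB2 in MS751 siDDX24-1 also turned with that length.

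Between the siControl libraries, 3 of the 6 shared genes differed at least 2-fold between the lines, where 29.4% of all shared genes did. DAG1 was lower in SiHa than in MS751 (log2 difference, SiHa minus MS751, -5.02, 95% interval -5.28 to -4.80), as was LRP4 (-3.52, -3.92 to -3.18), and SNTB2 was higher (2.40, 2.26 to 2.53). The DAG1 difference rests on the 152 counts of SiHa siControl, and whether these reflect the transcript level was not tested.

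Folds in both lines moved with the GC content of the transcript. In the most GC-rich twentieth of genes the median log2 fold was -0.32 in SiHa and -0.62 in MS751, against 0.11 and 0.15 in the most GC-poor. Each fold was therefore ranked among the 400 genes of its line nearest in GC content, as a description with no test. AGRN ranked at percentile 19.8 among SiHa genes and 51.8 among MS751 genes, where its 400 neighbours had median log2 folds of -0.33 and -0.68. The AGRN fold of MS751 was thus close to that of other transcripts of its composition. Its direction in MS751 thus turned once a smooth GC trend was removed, as given above. Over all genes past 2-fold, the share that was lower went from 67.6% to 56.2% in SiHa and from 69.6% to 62.2% in MS751 when this trend was removed.

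DAG1 in SiHa lay above all 400 of its GC neighbours (percentile 100), whose folds between the 5th and 95th percentile ran from -0.93 to 0.44, and at percentile 67.3 in MS751. LRP4 ranked at percentile 1.5 in SiHa and 87.0 in MS751, and SNTB1 at 96.0 in SiHa. UTRN lay at 80.0 and 43.5, SNTB2 at 51.8 and 41.3 and SGCB at 18.5 and 22.8 (SiHa first). SSPN lay at 57.5 in SiHa and SGCE at 18.5 in MS751. DAG1, LRP4 and SNTB1 in SiHa were thus the genes whose folds fell outside the 5th to 95th percentile of transcripts of like composition.

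**Figure D3:**
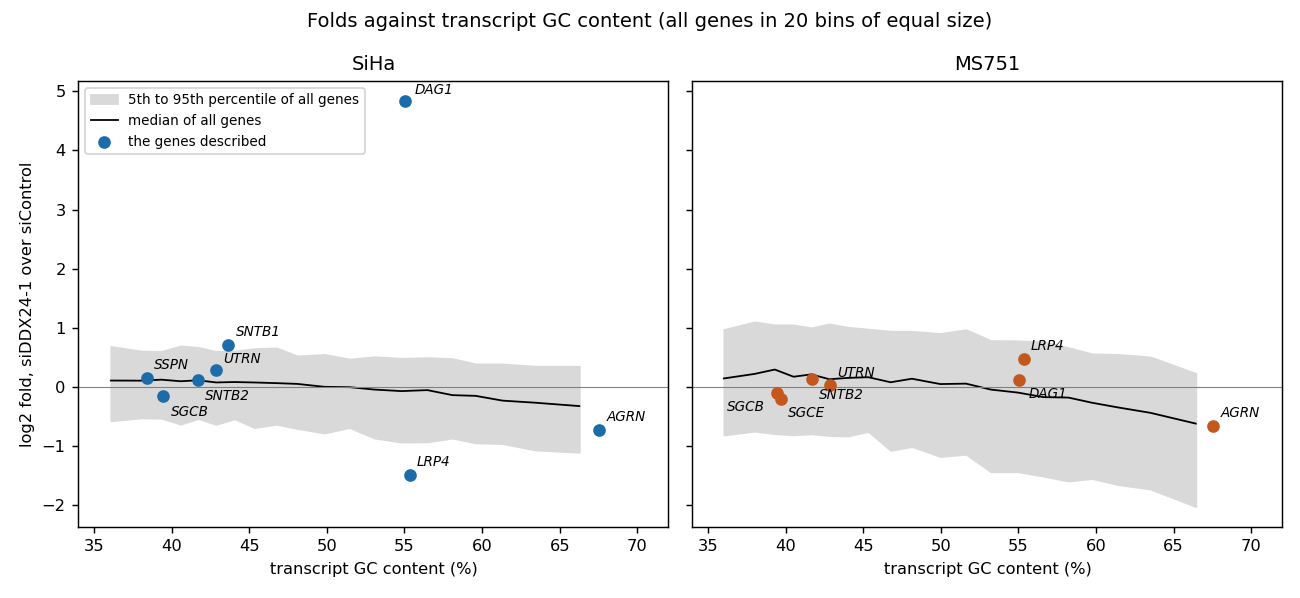
Log2 fold against the GC content of the longest coding transcript (%), with the median (line) and the 5th to 95th percentile (grey) of all genes in 20 bins of equal size and the described genes as points. AGRN, at 67.5% GC, lies at -0.72 in SiHa and -0.66 in MS751, where the line has fallen to -0.32 and -0.62, while DAG1 in SiHa lies at 4.83.

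The genes closest to AGRN and DAG1 in pattern were sought over the 4 libraries, by Euclidean distance between log2 CPM values centred on each gene's mean. For AGRN these were ARHGEF16 (distance 0.0865), PILRB (0.105) and ATAT1 (0.111). ARHGEF16, which encodes a guanine nucleotide exchange factor, had 640 and 431 counts in SiHa and 311 and 203 in MS751. For DAG1 the nearest genes lay much farther off, CBL at 1.31, KLHL26 at 1.90 and MDM4 at 2.16. CBL, a ubiquitin ligase gene, had 97 and 1484 counts in SiHa and 1074 and 841 in MS751, so its SiHa siControl library was also the low one. KLHL26 (46 and 350 in SiHa, 353 and 248 in MS751) had that shape as well, and MDM4 (46 and 376, 150 and 577) was higher with siDDX24-1 in both lines. All these genes were picked for likeness in these same 4 libraries. Shapes that they share with AGRN or DAG1 thus follow from the choice and are no separate evidence on either gene.

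Other genes of the pathway were taken from 8 lists, and those named below that were not past 2-fold were chosen after their values were seen. Counts past 2-fold below stand beside the shares over all genes, 1.46% higher and 3.05% lower in SiHa and 3.74% higher and 8.55% lower in MS751. The lists are short, so a count of 0 or 1 is no result about a list. In the test common to both lines 0 genes of these lists passed an adjusted p of 0.05 with edgeR. Of 19 genes of signalling through LRP4 and MuSK, 12 were listed in SiHa with 0 past 2-fold, and 13 in MS751 with 1 lower, DVL1 (1451 and 768 counts, log2 fold -1.06). DVL1 encodes an adaptor of Wnt signalling, and its log2 fold in SiHa was -0.52. DOK7, the cytoplasmic activator of MuSK, had 69 and 95 counts in SiHa and 125 and 77 in MS751, and RAPSN, the receptor-clustering partner, was unlisted in both. The list medians were 0.12 in SiHa and -0.03 in MS751.

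Of 15 genes that encode relatives and partners of LRP4, 3 of 14 listed in SiHa and 1 of 11 listed in MS751 were past 2-fold higher. Over all genes 1.46% in SiHa and 3.74% in MS751 were. MESD, a chaperone for such receptors, had 814 and 2559 counts in SiHa and 264 and 756 in MS751, log2 folds of 1.53 and 1.37. Its fold common to both lines was 1.44 (SE 0.22, adjusted p 0.152 by edgeR), so it too missed the threshold. The endocytic receptor genes LRP2 (451 and 1143 counts) and LRP1B (18 and 52 counts) had SiHa log2 folds of 1.22 and 1.36 and were unlisted in MS751. The list medians were 0.004 and -0.12.

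Other membrane proteins that bind agrin showed no gene past 2-fold among the 7 of 8 listed in each line, with medians of -0.18 in SiHa and 0.03 in MS751. ITGB1, the beta-1 integrin gene, had log2 folds of 0.16 and 0.35, and APP, the amyloid precursor gene, 0.68 and 0.16. Among 14 other ligands of dystroglycan, 8 were listed in SiHa with 0 past 2-fold and 7 in MS751 with 1 lower, the perlecan gene HSPG2 (1586 and 861 counts, log2 fold -1.02), which was at -0.04 in SiHa. The laminin chain genes LAMA5 and LAMC1 had log2 folds of -0.52 and 0.14 in SiHa and -0.30 and 0.11 in MS751. The medians of these ligands were -0.05 and -0.30.

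Of 18 other members of the dystrophin complex, 7 were listed in SiHa, with CAV1 (caveolin 1; 1226 and 3228 counts, log2 fold 1.27) past 2-fold higher and MAST1, a kinase gene (182 and 77 counts, -1.35), past it lower. In MS751 8 were listed, with MAST1 (421 and 228 counts, -1.02) past 2-fold lower and CAV1 at -0.61. The list medians were -0.14 and -0.34.

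The enzymes that build the O-mannose sugar chain of dystroglycan numbered 16 listed of 18 in SiHa, 0 past 2-fold, and 17 in MS751, with 1 higher, POMK (32 and 105 counts, log2 fold 1.54), and 1 lower, LARGE2 (712 and 376 counts, -1.06). POMK phosphorylates the core of the chain and LARGE2 extends its outer repeat. Of 8 proteases that cut agrin or dystroglycan, 5 were listed in each line with 0 past 2-fold. PRSS12, the agrin-cutting protease neurotrypsin, was listed in MS751 alone (777 and 572 counts). All 7 genes of the relay from agrin to YAP were listed in both lines with 0 past 2-fold, and YAP1 had log2 folds of 0.26 and 0.69. The medians of these 3 lists were -0.07, -0.17 and 0.07 in SiHa and 0.16, -0.28 and 0.15 in MS751.

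**Figure D4:**
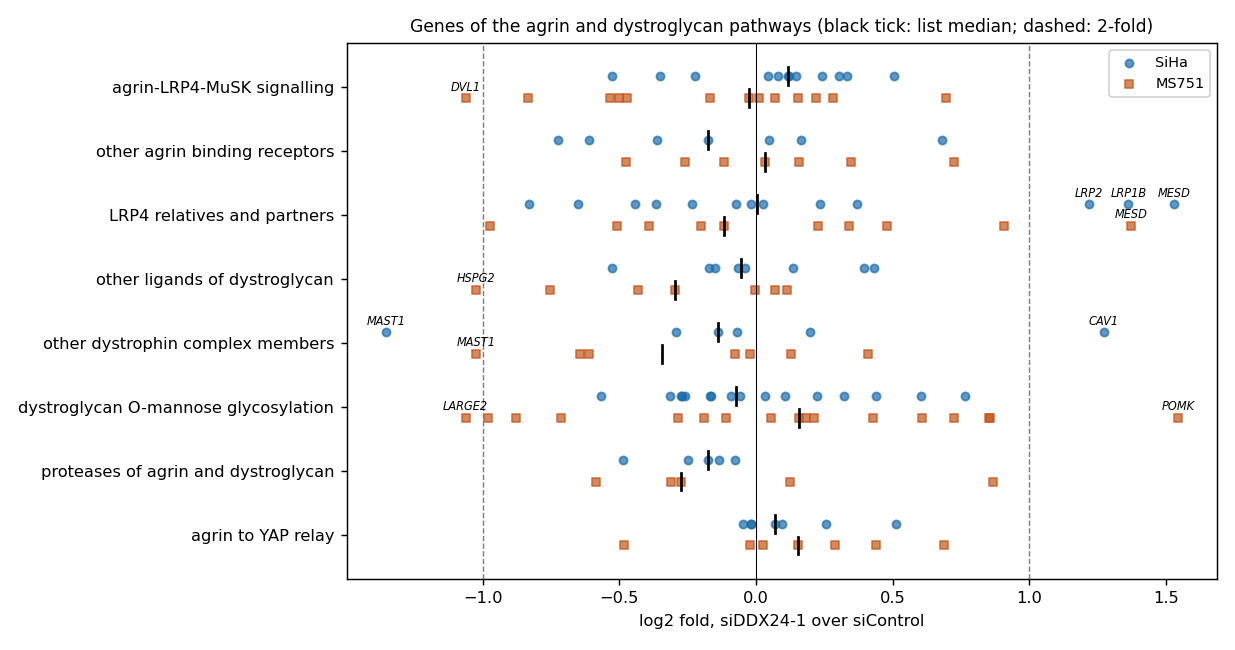
Log2 fold of siDDX24-1 over siControl for genes of the 8 pathway lists other than those not reported here, with circles for SiHa, squares for MS751, black ticks for medians of the whole lists and dashed lines at 2-fold. MESD, at 1.53 and 1.37, and MAST1, at -1.35 and -1.02, are the genes beyond 2-fold in both lines.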

How the data were processed

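The authors deposited 1 table per line of read counts per Ensembl gene, in whole numbers with no scaling. StringTie 1.3.4d, HISAT2 2.0.4 and fastp 0.23.2 appear with GRCh38.p12 (hg38) per the submitters' processing notes, with no role given. Which program counted the reads, with which annotation and strand setting, was not given in the sources used here. Identical repeated rows were dropped (70 in SiHa, 73 in MS751), and all identifiers matched GENCODE release 29, which gave positions, exons, lengths and GC content. Where genes shared a symbol, the one with the higher mean was kept.

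Log2 CPM values came from edgeR 4.0.16 (R 4.3.3) after TMM scaling within a line, a prior count of 1 and a mean of at least 1 CPM. Scaling was over all 4 libraries for the siControl difference between lines, the shared test and the distances in pattern. Levels given in CPM kept the scaling within a line, so they are not on a common scale across lines. Fold intervals are exact conditional (Clopper-Pearson) and level intervals exact Poisson, at 95%. Single libraries allowed no test inside a line. The siRNA effect that both lines share was tested on counts of shared genes with edgeR's quasi-likelihood test, line as block, Benjamini-Hochberg adjusted over all of them; its SE is the absolute log2 fold over the square root of F. The labels do not say whether libraries came from separate transfections, so p-values reflect only how far these libraries scatter, which may be technical. That scatter is in part borrowed from other genes, since the variance of each gene is drawn toward a trend. An SE or p-value is therefore not the spread of 1 gene between the lines. Alternatives used DESeq2 1.42.0, limma 3.58.1, other scalings, prior counts and filters, and mgcv 1.9.3 for the GC trend. The functions were tested on simulated counts.

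The 9 genes and the lists were chosen with earlier results of these data known. Named genes were the 9, DDX24, list genes past 2-fold, genes overlapping or next to the 9, and the 3 nearest in pattern to AGRN and to DAG1. Next genes are described for AGRN and DAG1 only. Some list genes are not reported here, though list counts and medians include them.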

Additional observations from a re-analysis of the deposited data

Results flagged for a closer look

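LRP4 had a log2 fold of -1.49 in SiHa and 0.48 in MS751. It stands out because the counts of the 2 lines moved in opposite directions, each by more than its counting interval. The difference between the lines was not tested, since 1 library per group leaves no spread to test it against. The SiHa value rests on 69 and 26 counts, close to the level at which the table ends.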

How the results depend on the processing

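The AGRN log2 fold in SiHa was -0.78 with library totals and -0.35 with the GC trend removed, an alternative chosen after seeing the data. With that trend removed AGRN in MS751 was 0.05, the only fold of AGRN, DAG1 and LRP4 within a line to turn, while LRP4 and DAG1 in MS751 were 0.64 and 0.27; UTRN and SNTB2 there, whose intervals included 0, were at -0.11 and -0.03. Pathway genes past 2-fold in MS751 then numbered 4 higher and 0 lower, against 2 and 5. MAST1, HSPG2, DVL1 and LARGE2 in MS751 were then at -0.51, -0.47, -0.37 and -0.59. MESD and POMK there stayed past 2-fold, at 1.29 and 1.55, as did MAST1 in SiHa, at -1.07. All MS751 genes past 2-fold then numbered 453 higher and 745 lower, against 450 and 1029. With a mean of at least 5 CPM LRP4 in SiHa left the set, leaving 0 genes past 2-fold lower, and MS751 had 1 pathway gene higher, as fewer genes enter. The percentile of AGRN among GC neighbours was 24.0 in SiHa with 200 neighbours and 43.5 in MS751 with 800. With GC content averaged over transcripts, LRP4 and DAG1 in MS751 were at 95.25 and 72.75. SNTB2 was then at 69.5 in SiHa and 56.25 in MS751, and SSPN at 66.75 in SiHa. In the test common to both lines DESeq2 called 97 genes, and edgeR called 0 with DESeq2 size factors, with a mean of at least 5 CPM or without the line block; the cause was not tested. In each of these fits 0 of the 6 genes were called, with adjusted p for AGRN from 0.222 to 1.0. The median fold of the set in MS751 was -0.006 with upper-quartile scaling, -0.03 with the GC trend removed and -0.031 without DAG1.

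The labels give no replicate numbers, so the cell line was the only block that could pair libraries; without this block the common log2 fold of LRP4 turned from -0.34 to 0.37 and that of DAG1 went from 2.38 to 0.91. Each group holds 1 library, so leaving out a replicate was not an option. Genes under 1 CPM are missing from the tables, which limits statements on SGCE, SNTB1 and SSPN in the line where each is unlisted, and the 69 and 26 counts of LRP4 in SiHa limit its fold.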
